A study of Mus musculus with 25 samples.

Results

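The genes described here are 40 genes of DNA replication and of entry into S phase. They were taken by gene symbol from a muscle table and a macrophage culture table, each of which lists 38087 genes, and all 40 were found in both. They fall into 7 role groups: loading of the replicative helicase (10 genes), its activation (4), polymerases and primase (5), the sliding clamp, its loader and lagging strand enzymes (7), supply of deoxynucleotides (4), copying of chromatin and DNA methylation (4), and regulators of the step from G1 to S phase (6). RNA sequencing of polyadenylated RNA was done on myeloid cells of C57BL/6J male mice of 2 to 4 months whose tibialis anterior muscle had been injured with cardiotoxin, a venom toxin that destroys the fibres. CD45+ cells were enriched magnetically and then sorted by flow cytometry into neutrophils (Ly6Ghigh) at day 1, with 3 samples, Ly6Clow F4/80high macrophages at day 4 (2 samples) and day 2 (3 samples), and Ly6Chigh F4/80low macrophages at day 4 (2 samples) and day 2 (3 samples). Bone marrow-derived macrophages (BMDM) were grown in culture with the growth factor M-CSF for 7 days, kept without it for 24 h, and given 10 nM the lipid mediator resolvin D2 (RvD2) for 4 h (3 libraries) or left untreated (3 libraries).

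Before a cell copies its DNA, the origin recognition complex, Cdc6 and Cdt1 load the ring-shaped Mcm helicase onto origins in G1 phase. Cyclin-dependent kinases then let Cdc45 and the GINS complex join it, and the helicase opens the double strand for the polymerases. The E2F transcription factors drive many of these genes late in G1, after cyclin D and cyclin E kinases have inactivated the retinoblastoma protein. Genes of mitosis are transcribed later in the cycle, in G2 phase. Tissue macrophages can divide in place, whereas mature neutrophils no longer divide.

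E2F factors bind short words near transcription starts, and the promoters of the members were searched for the 4 words TTTCCCGC, TTTCGCGC, TTTGCCGC and TTTGGCGC, each of 8 bases, on both strands, in the 250 bases before the RefSeq start (GRCm38.p6). A word was present in 10 of the 33 members with a promoter entry (30.3%), in 6 of 33 further replication genes (18.2%), in 1 of 22 mitosis genes (4.55%) and in 583 of all 27025 promoters (2.16%). The 10 members were Orc1, Cdc6, Mcm5, Mcm6, Mcm7, Pola1, Rfc3, Uhrf1, Dnmt1 and Cdk2. The 160 bases before the start are shown for 4 of them, 2 helicase subunits, a polymerase and a kinase, from 5′ to 3′ on the strand of the gene and with the matched words in capitals. In Mcm6 and Mcm5 words on opposite strands overlap. The windows are chr1:128359706-128359865 (minus strand) for Mcm6, chr8:75109349-75109508 (plus strand) for Mcm5, chrX:93632156-93632315 (minus strand) for Pola1 and chr10:128705052-128705211 (minus strand) for Cdk2.
Mcm6: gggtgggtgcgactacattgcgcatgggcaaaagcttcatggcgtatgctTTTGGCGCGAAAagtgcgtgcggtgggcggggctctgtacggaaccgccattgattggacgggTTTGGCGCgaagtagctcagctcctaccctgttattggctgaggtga
Mcm5: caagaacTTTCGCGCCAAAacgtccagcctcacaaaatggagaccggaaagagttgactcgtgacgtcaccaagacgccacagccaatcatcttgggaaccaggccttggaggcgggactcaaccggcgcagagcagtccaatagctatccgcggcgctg
Pola1: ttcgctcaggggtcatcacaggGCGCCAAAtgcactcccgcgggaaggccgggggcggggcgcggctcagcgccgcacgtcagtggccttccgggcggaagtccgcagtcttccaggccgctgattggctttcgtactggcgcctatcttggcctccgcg
Cdk2: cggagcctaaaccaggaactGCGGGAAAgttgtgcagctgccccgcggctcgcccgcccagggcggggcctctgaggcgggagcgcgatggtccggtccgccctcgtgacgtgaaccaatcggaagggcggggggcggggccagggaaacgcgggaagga
A word is a match of letters and not a measured site, and a promoter without one may hold other E2F sequences.

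Values in the muscle table are the authors' means of log2 normalised counts over the samples of a group, so they carry no replicate error and no test was possible there. Normalised counts given for muscle are these means returned to the linear scale. Ratios between groups were taken after adding 10, and a gene is called higher or lower where it differed at least 2-fold with 50 or more normalised counts in the higher group. Summed normalised counts were 26.001 M (mega) in neutrophils and 11.9 to 12.8 M in the 4 macrophage groups. Genes of the sort antigens Ly6C and Ly6G were as labelled in the macrophages. Ly6c2 was at a log2 level of 6.55 in Ly6Clow cells at day 4 and 7.12 at day 2. In Ly6Chigh cells it was at 13.52 at day 4 and 11.86 at day 2, and Ly6g was listed at 0 in all 4 groups. Emr1, the gene of F4/80, was higher in Ly6Clow cells by less than 2-fold. It was at 14.26 and 13.80 in Ly6Clow cells at day 4 and day 2, against 13.80 and 13.08 in Ly6Chigh cells. In neutrophils Ly6g was at 7.20 and the neutrophil marker list summed to 343547 normalised counts, against 2214 to 2998 in the macrophage groups. Of 5 macrophage markers measured, 4 were lower in neutrophils than in each macrophage group. Emr1 (F4/80) was at a log2 level of 11.07 in neutrophils, against 13.08 to 14.26, and Csf1r at 13.42, against 13.86 to 15.16. Cd68 was at 13.31, against 13.57 to 14.74, and Mertk at 3.69, against 9.76 to 11.90. Itgam (CD11b), which neutrophils also express, was higher there, at 15.86 against 13.12 to 14.67.

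**Figure D1:**
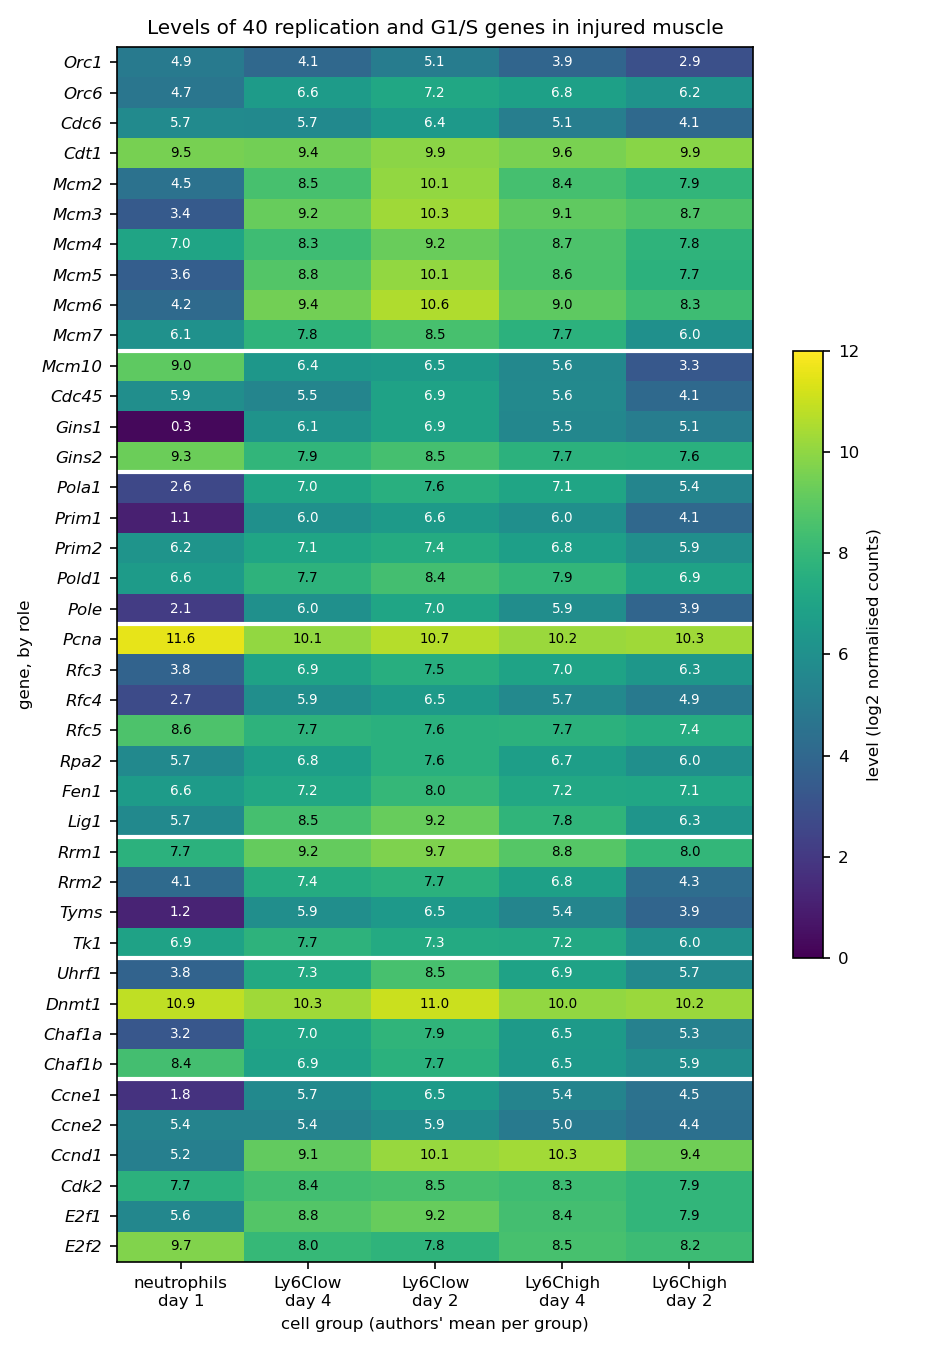
Heat map of the log2 normalised counts (colour scale) of the 40 members, in rows by role, over the 5 muscle groups, in columns with neutrophils at day 1 first, with no error because each value is the authors' group mean. Among the macrophage groups 36 members were highest in Ly6Clow cells at day 2 and 35 were lowest in Ly6Chigh cells at day 2.

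Among the 4 macrophage groups 36 of the 40 members had their highest level in Ly6Clow cells at day 2. The exceptions were Ccnd1 and E2f2, highest in Ly6Chigh cells at day 4, and Tk1 and Rfc5, highest in Ly6Clow cells at day 4. The lowest level was in Ly6Chigh cells at day 2 for 35 members, and 26 members had the same full order, Ly6Clow day 2, Ly6Clow day 4, Ly6Chigh day 4 and Ly6Chigh day 2 from high to low. Per kilobase of exon, the members most abundant in Ly6Clow cells at day 2 were Pcna with 680 normalised counts, Mcm3 with 332, Mcm6 with 326, Cdt1 with 303, Dnmt1 with 286 and Mcm5 with 268, and the least abundant was Orc1 with 9.55. A lower value in these bulk samples can stand for fewer cycling cells or for less RNA per cell, and these cannot be told apart.

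At day 2, the members were higher in Ly6Clow than in Ly6Chigh macrophages. Of the 40, 29 were called higher and 0 lower, against 5.9% of 11275 genes called higher and 5.46% called lower. The median log2 ratio was 1.55 over the members and -0.00 over all genes past the level limit. Single members ranged between -0.39 for E2f2 and 2.85 for Rrm2, and E2f2 alone was below 0. Orc1, the largest subunit of the origin recognition complex, was under the level limit in both groups and could not be called. In a fixed list of 26 mitosis genes 17 were called higher and 1 lower, with a median log2 ratio of 2.03, and in 41 other replication genes 12 were higher and 1 lower, with a median of 0.70. The exceptions were Cenpa, the centromeric histone, at -1.21 and Dna2, a nuclease and helicase, at -1.16.

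Helicase loading had 7 of 10 genes higher at day 2 and a median log2 ratio of 1.70. Mcm7 had 369 normalised counts in Ly6Clow cells at day 2, against 65.8 in Ly6Chigh cells, a log2 ratio of 2.32. Mcm5 had 1069 in Ly6Clow and 207 in Ly6Chigh cells, 4.97-fold higher, and Mcm6 was 4.75-fold, Mcm2 4.33-fold, Mcm3 2.97-fold and Mcm4 2.60-fold higher. All 6 subunits of the Mcm ring, which unwinds the double strand, were therefore called higher. Cdc6, an ATPase that helps load the ring, had 86.6 normalised counts in Ly6Clow and 17.2 in Ly6Chigh cells. Its partner Cdt1 was level, with 952 normalised counts in Ly6Clow cells and 944 in Ly6Chigh cells. Orc6, a small origin subunit, was 1.86-fold higher and short of the 2-fold limit.

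Among the genes of helicase activation 3 of 4 were higher at day 2 and a median log2 ratio of 1.93. Mcm10, a factor that helps the helicase start, had 93.2 normalised counts in Ly6Clow and 9.87 in Ly6Chigh cells, a ratio of 5.20-fold. Cdc45, the helicase cofactor, had 121 in Ly6Clow and 17.1 in Ly6Chigh cells, 4.84-fold. Gins1 was 2.99-fold higher, while Gins2, another GINS subunit, was 1.79-fold higher and not called.

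Polymerase and primase genes were higher in 5 of 5 cases at day 2, with a median of 1.91. Pole, the catalytic subunit of the leading strand polymerase, had 131 normalised counts in Ly6Clow and 15.3 in Ly6Chigh cells, 5.60-fold higher. Prim1, which makes the RNA primers, had 94.2 in Ly6Clow and 16.7 in Ly6Chigh cells, 3.90-fold higher. Pola1, the polymerase that extends the primers, was 3.75-fold higher, and Pold1, of the lagging strand polymerase, 2.70-fold.

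The clamp, loader and lagging strand group was more mixed at day 2, with 4 of 7 genes higher and a median of 1.09. Lig1, the ligase that joins Okazaki fragments, had 590.4 normalised counts in Ly6Clow and 77.1 in Ly6Chigh cells, 6.89-fold higher. Rpa2, a subunit of the single-strand binding protein, had 197 in Ly6Clow and 62.3 in Ly6Chigh cells, 2.87-fold higher. Pcna, the clamp itself, differed little, with 1631 in Ly6Clow and 1265 in Ly6Chigh cells, 1.29-fold higher. Of the clamp loader genes, Rfc4 had a log2 ratio of 1.32 and Rfc3 of 1.09, whereas Rfc5 was at 0.18. Fen1, the flap nuclease, was 1.82-fold higher.

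Deoxynucleotide supply had 4 of 4 genes higher at day 2, with a median of 1.83. Rrm2, the S phase subunit of ribonucleotide reductase, had 203 normalised counts in Ly6Clow and 19.5 in Ly6Chigh cells, and its 7.23-fold ratio was the highest of the 40 members. Its partner Rrm1 was 3.24-fold higher. Tyms, which makes thymidylate, had 88.6 in Ly6Clow and 15.2 in Ly6Chigh cells, 3.91-fold higher, and the salvage kinase gene Tk1 was 2.26-fold higher.

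Genes that copy chromatin and methylation were higher in 3 of 4 cases at day 2, with a median of 1.95. Uhrf1, which brings the methyltransferase to newly copied DNA, had 365 normalised counts in Ly6Clow and 50.8 in Ly6Chigh cells, 6.17-fold higher. Chaf1a, of the chromatin assembly factor, had 233 in Ly6Clow and 39.2 in Ly6Chigh cells, 4.94-fold higher, and Chaf1b was 3.02-fold higher. The maintenance methyltransferase gene Dnmt1 was 1.81-fold higher and not called.

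The G1/S regulators had the lowest median of the 7 role groups at day 2, 0.92, with 3 of 6 higher. Ccne1, a cyclin E gene, had 92.8 normalised counts in Ly6Clow and 22.8 in Ly6Chigh cells, 3.14-fold higher, and Ccne2 was 2.17-fold higher. E2f1, an activator of S phase genes, had 583 in Ly6Clow and 237 in Ly6Chigh cells, 2.40-fold higher. E2f2, an E2F activator of the same family, went the other way, with 225 in Ly6Clow and 296 in Ly6Chigh cells, 1.31-fold lower. Ccnd1 (cyclin D1) had 1122 in Ly6Clow and 680.3 in Ly6Chigh cells, 1.64-fold higher, and Cdk2, the kinase partner of cyclin E, was 1.54-fold higher, both short of the limit.

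Members with and without an E2F word had overlapping ratios at day 2. Of the 10 with a word, 7 were called higher, with a median log2 ratio of 1.87, and of the 23 matched members without a word 17 were called higher, with a median of 1.57. The 4 promoters printed above belong to genes with ratios of 4.75-fold (Mcm6), 4.97-fold (Mcm5), 3.75-fold (Pola1) and 1.54-fold (Cdk2).

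At day 4 the subsets were close for nearly all members. The count was 0 called higher and 1 lower of 40, against 2.98% of 11764 genes called higher and 4.22% called lower, and the median log2 ratio was 0.16 over the members and 0.01 over all genes. Ccnd1 was the gene called lower, with 561 normalised counts in Ly6Clow and 1281 in Ly6Chigh cells at day 4, 2.26-fold. Rrm2 had 169 in Ly6Clow and 113 in Ly6Chigh cells, and Pole 65.0 in Ly6Clow and 59.3 in Ly6Chigh cells. Markers of other cells moved with this comparison. Called lower in Ly6Clow cells were 8 of 8 fibroblast markers, 4 of 8 T and NK cell, 5 of 6 dendritic cell and 4 of 5 endothelial markers. The fibroblast markers summed to 2131 normalised counts in Ly6Clow and 25937 in Ly6Chigh cells, and the T and NK cell markers to 23.5 in Ly6Clow and 848 in Ly6Chigh cells. Dendritic cell markers summed to 134 in Ly6Clow and 1394 in Ly6Chigh cells, and endothelial markers to 274 in Ly6Clow and 1014 in Ly6Chigh cells. Their part in the ratio of Ccnd1 was not tested. Of the members, 29 were above 0 and 11 below. Making the group totals equal moved the median of all genes by -0.10 and turned the sign of Rpa2, Rfc5, Mcm7, Mcm2, Prim1 and Cdk2. Mitosis genes still stood higher in Ly6Clow cells at day 4, with 10 of 26 called higher, 0 lower and a median of 0.92. Plk1, a mitotic kinase gene, had the highest ratio among them, with log2 levels of 6.90 in Ly6Clow and 5.20 in Ly6Chigh cells. Skeletal muscle markers were also higher in Ly6Clow cells, with 8 of 8 above 0 and 1 called. They summed to 1176 normalised counts in Ly6Clow and 705 in Ly6Chigh cells, and their part in the mitosis ratios was not tested.

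For each member the log2 subset ratio at day 4 minus that at day 2 was below 0, in 40 of 40, with a median of -1.39 and a range of -2.42 for Cdc45 to -0.08 for E2f2. Over the 10990 genes past the level limit at both days, 49.1% were below 0 and the median was 0.01. Cdc45 had a log2 ratio of -0.15 at day 4 and 2.28 at day 2. The ratio of Pole was 0.11 at day 4 and 2.49 at day 2, and that of Rrm2 was 0.54 at day 4 and 2.85 at day 2.

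**Figure D2:**
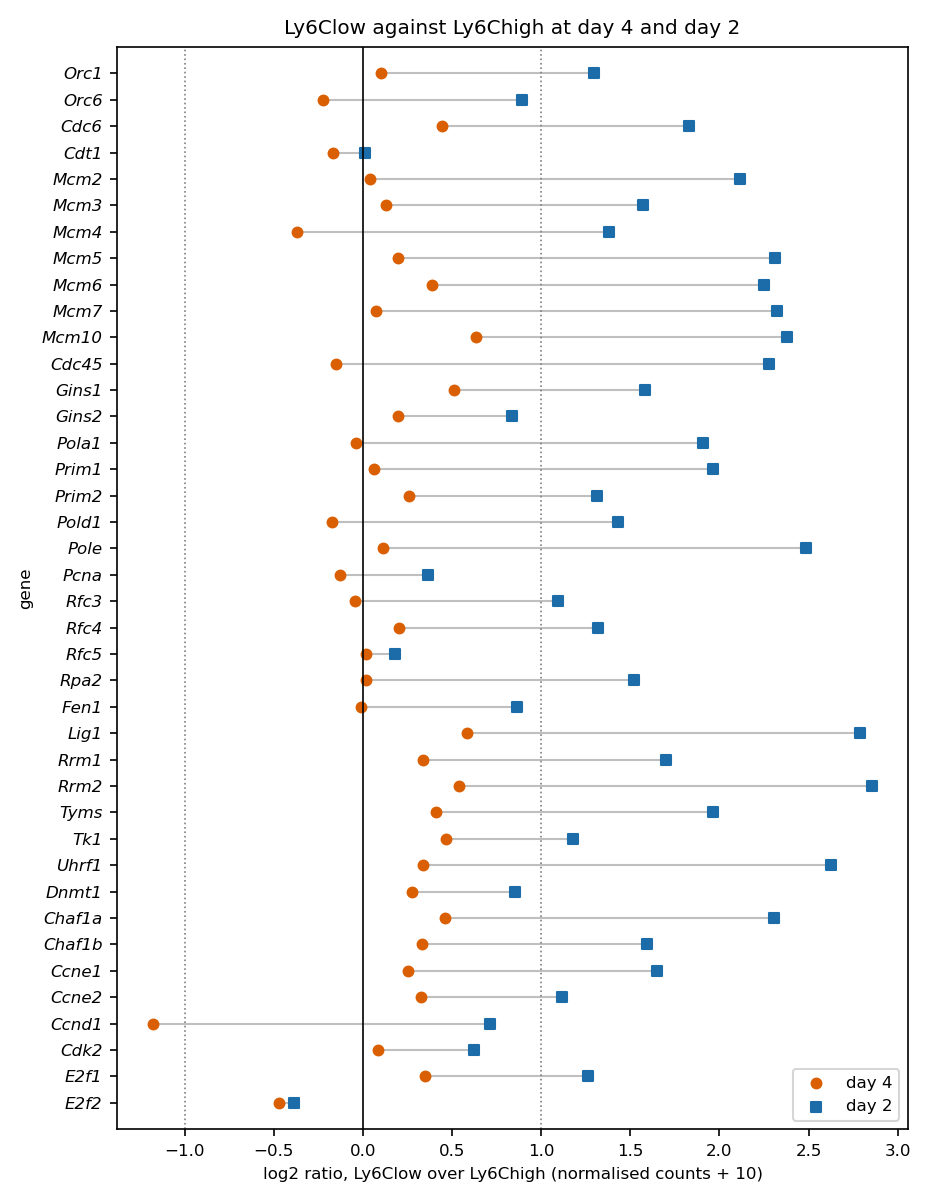
Log2 ratio of Ly6Clow over Ly6Chigh macrophages at day 2 and day 4 for each of the 40 members, in rows by role, with dotted lines at 2-fold. The 29 members called higher at day 2 include none called higher at day 4, and Ccnd1 was the single member called lower at day 4.

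The levels of the 2 subsets lay closer at day 4 than at day 2. In Ly6Chigh macrophages, day 4 against day 2, 9 of 40 members were called higher and 0 lower, against 9.67% of 11618 genes higher and 3.74% lower. Their median log2 ratio was 0.71, against -0.01 over all genes. Adding 50 in place of 10 before the ratio left 3 higher, with the share of all genes not counted at that setting. Those called were Rrm2 (113 normalised counts at day 4 and 19.5 at day 2), Mcm7, Lig1, Pole, Prim1, Pola1, Tk1, Uhrf1 and Chaf1a, at log2 ratios of 1.05 for Chaf1a to 2.06 for Rrm2. Polymerase and primase genes had the highest count per group, 3 of 5. Below 0 stood Cdt1 at -0.28, Dnmt1 at -0.15 and Pcna at -0.12. Of the 9, Mcm7, Lig1, Pole, Tk1 and Chaf1a share exon bases with genes on the opposite strand, and 4 of the 24 members without such overlap or a pseudogene were called.

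Other cell types' markers moved with this comparison. The 8 fibroblast markers summed to 25937 normalised counts in Ly6Chigh cells at day 4 and 275 at day 2, with 0 of 8 listed at 0 in either. T and NK cell markers summed to 848 at day 4 and 25.1 at day 2, and dendritic cell markers to 1394 at day 4 and 133 at day 2. Their part in the members' ratios was not tested.

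Ly6Clow macrophages showed the opposite direction for the members, day 4 against day 2. Here 0 were called higher and 6 lower of 40, against 8.08% of 11560 genes higher and 3.24% lower, with a median of -0.66 over the members and -0.01 over all genes. The 6 were mostly helicase genes. Mcm2 had 359 normalised counts at day 4 and 1069.6 at day 2, a 2.93-fold difference. Cdc45 was 2.43-fold lower, Mcm5 2.37-fold, Uhrf1 2.28-fold, Mcm6 2.19-fold and Mcm3 2.11-fold. Tk1, Rfc5 and E2f2 were above 0, at log2 ratios of 0.39, 0.12 and 0.22. In all, 34 members were higher at day 4 in Ly6Chigh cells and lower at day 4 in Ly6Clow cells. Fibroblast markers summed to 2131 normalised counts in Ly6Clow cells at day 4 and 95.2 at day 2, and skeletal muscle markers to 1176 at day 4 and 305 at day 2, and their part in these ratios was not tested.

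Replication and mitosis genes parted in Ly6Clow cells. While 37 of 40 members were below 0 at day 4 against day 2, 25 of 26 mitosis genes were above 0, with 6 called higher, 0 lower and a median log2 ratio of 0.69. Ccnb2 (cyclin B2) had log2 levels of 7.79 at day 4 and 6.12 at day 2. Ube2c, a ubiquitin enzyme of mitotic exit, was at 7.41 at day 4 and 5.82 at day 2, and Cenpf, a kinetochore gene, at 6.73 at day 4 and 5.05 at day 2. Of the 41 other replication genes, 0 were higher and 1 lower, the S phase kinase gene Cdc7. In Ly6Chigh cells both kinds stood above 0, with 16 of 26 mitosis genes called higher at a median of 1.70. The difference between the lists has no error here and was not tested. The part of the fibroblast and skeletal muscle markers given above in the mitosis ratios was not tested either.

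**Figure D3:**
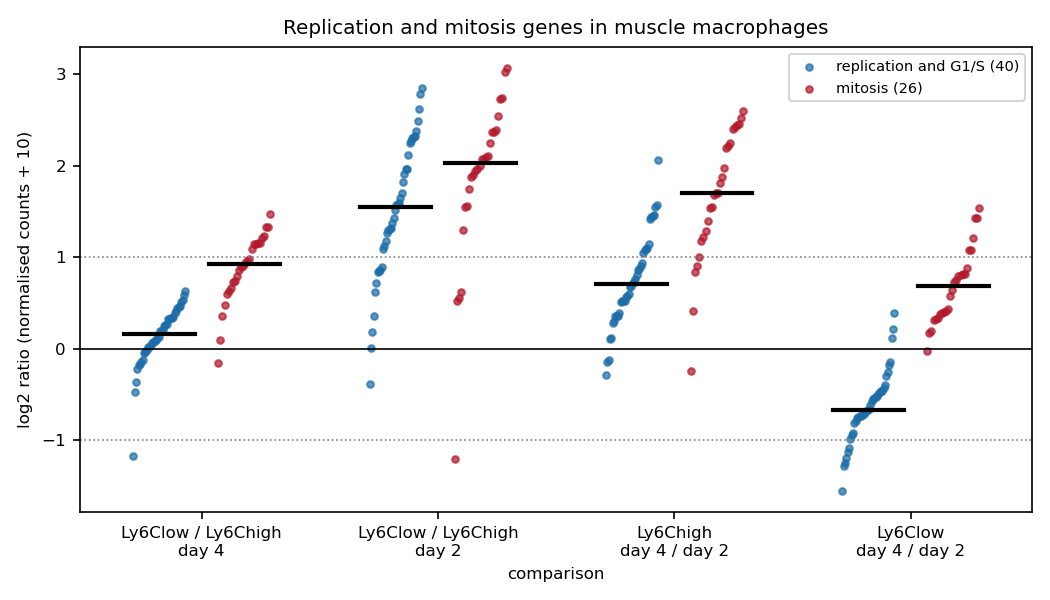
Log2 ratios of the 40 members and of the 26 mitosis genes in the 4 macrophage comparisons, each point 1 gene and each bar a median. In Ly6Clow cells at day 4 against day 2 the medians were -0.66 for the members and 0.69 for the mitosis genes.

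Set against Ly6Chigh cells at day 2, Ly6Clow cells at day 4 still had higher levels of many members. Of 40, 16 were called higher and 0 lower, against 12.6% of 11628 genes higher and 6.66% lower, with a median of 0.86 over the members and -0.03 over all genes. Adding 50 in place of 10 before the ratio left 9 higher, and the share of all genes was not counted at that setting. Rrm2 was 6.06-fold, Mcm10 4.61-fold and Lig1 4.14-fold higher. In the mitosis list 23 of 26 were higher, with a median of 2.73. Fibroblast markers summed to 2131 normalised counts in Ly6Clow cells at day 4 and 275 in Ly6Chigh cells at day 2. Skeletal muscle markers summed to 1176 and 252 in the same groups, and the part of either list in these ratios was not tested. The comparisons of macrophage groups use the same 4 columns, so their ratios are not independent of each other.

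Cyclin D1 was the only member called lower in Ly6Clow than in Ly6Chigh cells at day 4. Its log2 level was 9.13 in Ly6Clow cells at day 4 and 10.13 at day 2, and 10.32 in Ly6Chigh cells at day 4 and 9.41 at day 2. Among the 15 other G1/S regulators, Ccnd2 (cyclin D2) was also called lower at day 4, with log2 levels of 5.46 in Ly6Clow and 8.22 in Ly6Chigh cells. So was Myc, a growth regulator, with 7.66 in Ly6Clow and 8.73 in Ly6Chigh cells. The fibroblast and other markers given above moved with these ratios too, and their part was not tested. E2f8, a repressor of the E2F family, was called higher at day 2, with log2 levels of 6.84 in Ly6Clow and 5.36 in Ly6Chigh cells. Ccnd1 shares 1100 exon bases with LTO1 on the opposite strand, and LTO1 was at 236 normalised counts in Ly6Clow and 247 in Ly6Chigh cells at day 4.

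At any size of ratio, 25 members were lower in neutrophils at day 1 than in all 4 macrophage groups. Members called lower far outnumbered those called higher against Ly6Clow cells of both days and Ly6Chigh cells at day 4. The counts of calls were close against Ly6Chigh cells at day 2. Against Ly6Clow cells at day 2, 2 members were called higher and 26 lower, with a median log2 ratio of -2.12, where 31.9% of 12145 genes were higher and 30.5% lower with a median of 0.05. Against Ly6Clow cells at day 4 the counts were 5 higher and 23 lower (median -1.5001; 30.3% and 30.6% of 12368 genes). Against Ly6Chigh cells at day 4 they were 5 higher and 20 lower (median -1.55; 29.3% and 29.9% of 12347 genes), and against Ly6Chigh cells at day 2 they were 8 higher and 9 lower (median -0.39; 30.9% and 27.6% of 11789 genes). These 4 comparisons share the neutrophil column. The level limit was passed by 39 members against Ly6Clow cells at day 2, 38 against Ly6Clow cells at day 4, 35 against Ly6Chigh cells at day 4 and 29 against Ly6Chigh cells at day 2. With totals made equal the last comparison had 2 members higher and 17 lower, and the other 3 had 1 higher each. The median of all genes was then -0.96 in the last comparison and -1.02 to -1.12 in the others. The share of all genes called on that scale was not counted.

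Called lower against all 4 macrophage groups were 9 members, Orc6, Mcm2, Mcm3, Mcm5, Mcm6, Rfc3, Uhrf1, Ccnd1 and E2f1, where 20.9% of 11545 genes met the same condition. The Mcm ring genes were unequal among themselves. Mcm3 had 10.5 normalised counts in neutrophils, against 413 to 1246 in the macrophage groups, and Mcm5 had 11.9, against 207 to 1069. Mcm7 had 68.0, against 65.8 to 369, and Mcm4 128, against 226 to 605. Ccnd1 had 36.5 in neutrophils, against 561 to 1281.

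Higher against all 4 macrophage groups were Mcm10 and E2f2, 2 of 40, where 25.2% of genes met that condition. Mcm10 had 519.6 normalised counts in neutrophils, against 81.6 and 93.2 in Ly6Clow cells at day 4 and day 2 and 49.0 and 9.87 in Ly6Chigh cells at day 4 and day 2. Its ratios were 5.13-fold to 26.7-fold. E2f2 had 854 in neutrophils, against 225 to 368 in the macrophage groups. Pcna, Gins2, Rfc5 and Chaf1b were also above all 4 groups, with 3037, 630.4, 396 and 339 normalised counts.

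The neutrophil ratios depend on the scale, because the summed counts were larger there. The median log2 ratio of all genes was 0.05 to 0.15 as deposited, and making the totals equal moved it by -1.08 to -1.19. Setting the deposited median to 0 instead turned the sign of Mcm7 against Ly6Chigh cells at day 2. It also turned that of Cdc6 against Ly6Clow cells at day 4, and of no other member. Which scale is right was not tested. With equal totals Mcm10 stayed above each macrophage group, at log2 ratios of 1.36 to 3.80, and so did E2f2, at 0.08 to 0.86. Pcna, Gins2, Chaf1b and Rfc5 turned negative against Ly6Clow cells at day 2, and Rfc5 also against both groups of day 4. Reads may also come from neighbours or copies. The processed pseudogene Pcna-ps2 had 2356 normalised counts in neutrophils, against 820.0 to 1375 in macrophages, and Gins2 shares 2758 exon bases with Gse1 on the opposite strand, which had 2315, against 410.3 to 504. Rfc5 shares 499 exon bases with Wsb2, at 6822 in neutrophils against 905 to 1800.1. No exon of another gene in GENCODE M21 overlaps Mcm10, E2f2 or Chaf1b.

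**Figure D4:**
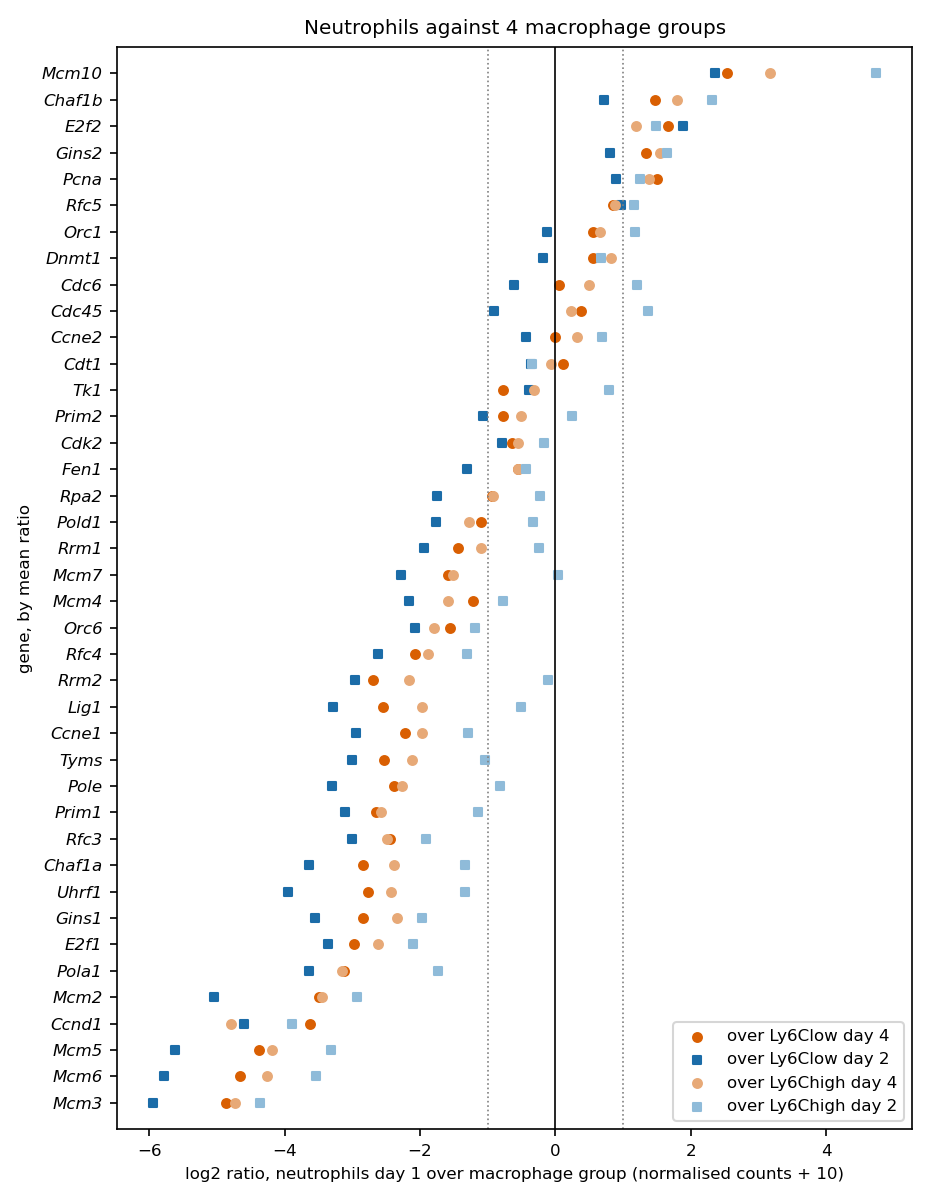
Log2 ratio of neutrophils at day 1 over each macrophage group for the 40 members, in rows by mean ratio, on the deposited scale, with dotted lines at 2-fold. Mcm10 and E2f2 were called higher against each of the 4 macrophage groups, and 9 members were called lower against each. At any size of ratio, 6 members stood above all 4 groups and 25 below all 4.

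The last question was whether RvD2 altered these genes in cultured macrophages, where each library has its own value. No member passed the test: 0 of 40 were called higher and 0 lower by limma with Benjamini-Hochberg adjustment at 0.05, against 0.794% of 15239 genes called higher and 1.06% called lower. At an unadjusted limma p under 0.05 there were 8 of 40 members, 6 of them lower, against 2370 of the 15239 genes, 1281 of them lower. That fit had no replicate block. With the replicate number as a block, limma called 1 member higher and 5 lower. Of all 15239 genes it then called 492 higher and 574 lower. Whether the replicate numbers pair the libraries is not known. The median log2 difference was -0.12, with 32 of 40 below 0 (80%), against -0.00 and 50.8% over all genes. Leaving out single libraries gave medians of -0.16 to -0.04, with -0.04 both without RvD2 library 3 and without untreated library 1. The libraries of the 2 groups did not overlap for 8 members (20%), against 21% of all genes. Estimated depth was 9.12, 9.79 and 11.9 M gene reads in the RvD2 libraries and 10.1, 14.3 and 9.05 M in the untreated ones. Fibroblast markers were also read in the culture. Col1a1 averaged a log2 value of 14.2 in both groups, and Csf1r 14.3 with RvD2 and 14.2 untreated. Of 7 fibroblast markers tested 0 passed, and Dcn was the lowest, at 5.34 with RvD2 and 4.97 untreated. Their part in the differences of members and mitosis genes was not tested.

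The 5 members of lowest p were Dnmt1, E2f2, Pola1, Cdt1 and Chaf1a. Dnmt1 had log2 values of 11.21, 11.09 and 10.996 with RvD2, against 11.38, 11.34 and 11.28 untreated. All 3 RvD2 libraries were lower than all 3 untreated ones, and the difference was -0.24 (SE 0.06, limma adjusted p = 0.115). E2f2 had 7.24, 7.18 and 7.05 with RvD2, against 7.36, 7.57 and 7.57 untreated, again without overlap, at -0.34 (SE 0.10, limma adjusted p = 0.147). Cdt1 had 9.68, 9.51 and 9.47 with RvD2, against 9.83, 9.86 and 9.69 untreated. Its groups did not overlap either, at -0.24 (SE 0.08, limma adjusted p = 0.178). Chaf1a had 8.97, 8.82 and 8.64 with RvD2, against 9.28, 9.16 and 8.96 untreated. Here the highest RvD2 library lay above the lowest untreated one, and the difference was -0.32 (SE 0.11, limma adjusted p = 0.182).

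Pola1 differed in sign from these. It had 8.95, 8.95 and 8.87 with RvD2, against 8.83, 8.50 and 8.47 untreated, higher in 3 of 3 libraries, at 0.32 (SE 0.10, limma adjusted p = 0.157). Without untreated library 1, the highest of its group, the difference was 0.44 and the limma adjusted p was 0.0474.

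Ccnd1 had log2 values of 11.71, 11.61 and 11.46 with RvD2, against 11.83, 11.58 and 11.49 untreated. The groups overlapped, and the difference was -0.04, with a 95% confidence interval of -0.26 to 0.18. Pcna averaged 11.60 ± 0.10 with RvD2 and 11.53 ± 0.08 untreated (SD, n = 3 each), and E2f1 9.30 ± 0.11 with RvD2 and 9.39 ± 0.05 untreated. The other 32 members had differences of -0.27 for Uhrf1 to 0.21 for Ccne2. In the deoxynucleotide supply and chromatin groups 4 of 4 and 4 of 4 differences were below 0, and in the polymerase and primase group 3 of 5.

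The mitosis genes of the same libraries fell with RvD2. Of 26, 18 passed the limma test as lower and 0 as higher, with a median log2 difference of -0.52 and 25 below 0. Ccnb2 averaged 7.27 ± 0.06 with RvD2 and 8.25 ± 0.06 untreated (SD, n = 3 each), a difference of -0.98 (limma adjusted p = 0.00279). Cenpf fell by 0.85 on the log2 scale (limma adjusted p = 0.00339), Cdc20, the activator of the anaphase complex, by 0.87 (adjusted p = 0.00813) and Ccnb1 (cyclin B1) by 0.85 (adjusted p = 0.00803). The count was 11 without the filter on low genes and 3 without the mean-variance trend. It was between 7 and 18 when single libraries were left out, lowest without RvD2 library 3. Without RvD2 library 2 it was 8, without untreated library 1 it was 9, and without untreated library 2 or 3 it was 11. Of the other replication genes, 1 of 41 passed as lower, Dbf4, the activating subunit of the Cdc7 kinase, at -0.41 (limma adjusted p = 0.0145). No other G1/S regulator of 14 tested passed by limma (0), with 2 at an unadjusted p under 0.05. The difference between the members and the mitosis genes was not tested.

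**Figure D5:**
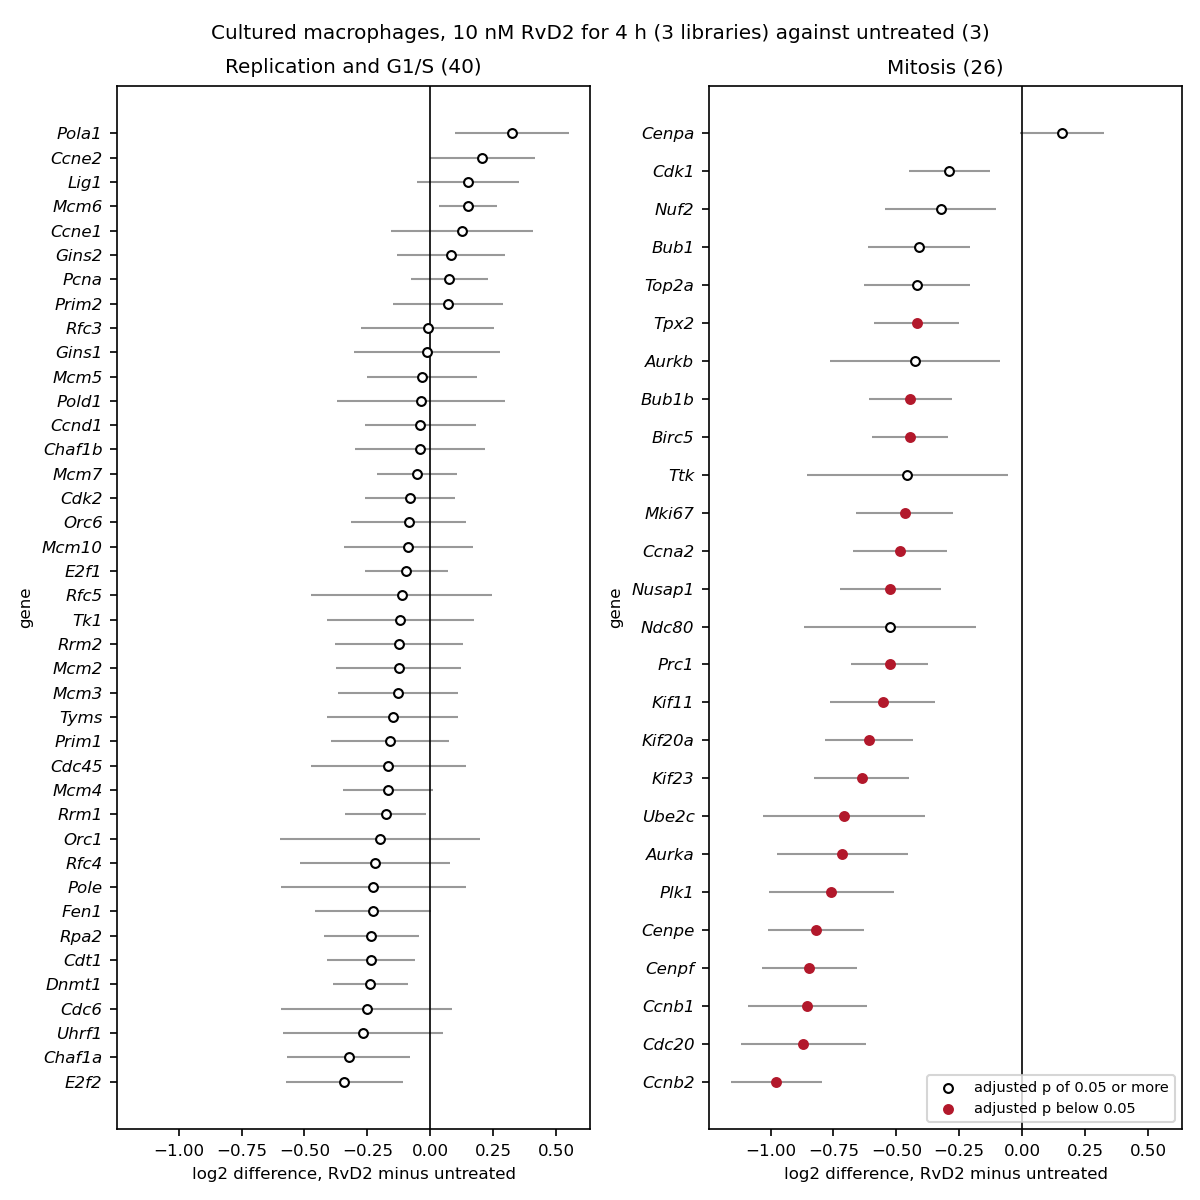
Log2 difference of RvD2-treated minus untreated BMDM for the 40 members with 95% confidence intervals from limma (3 libraries each), beside the 26 mitosis genes drawn the same way, filled where the adjusted p was below 0.05. In this fit without a replicate block no member passed the adjusted threshold, and 18 mitosis genes passed as lower.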

How the data were processed

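The deposited tables hold log2 values of normalised counts, as read from the values themselves, and the authors set anything below 1 normalised count to 0. The culture table has 1 column per library, and the muscle table has the authors' mean of log2 values per group. The build mm10, DESeq and TopHat2 2.0.7 are named per the submitters' processing notes. Per the labels' protocols, the TruSeq kit as described marks no strand, so overlapping genes are uncertain. Groups came from the labels (25 samples in 9 groups), of which 6 samples (blood monocytes, and Ly6Chigh cells of day 1) are not analysed here. The labels do not say that replicates came from separate cultures, so a p-value reflects sample spread that may be technical, and 0 columns belonged to other series. Muscle depth is unknown, and the culture depths were estimated from the value of 1 read and describe counting error alone.

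In muscle, 10 was added to normalised counts before ratios, and 9 comparisons were made without a test. BMDM libraries were compared in limma 3.58.1 (R 4.3.3) with a mean-variance trend, on 15239 genes with a mean of at least 10 normalised counts, two-sided, adjusted over all of them. The script was tested on simulated data. GENCODE M21 gave exons (GRCm38) for 40 members, and RefSeq (GRCm38.p6) gave promoters for 33 of them. Python 3.11.15 was used for the rest.

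Members are named by role. Described in full are the 2 per role with the largest ratio between subsets at day 2, members against the majority direction, Ccnd1, E2f1 and Pcna, and for BMDM the members past the threshold or, with none, the 5 of lowest p. Of other lists up to 4 called genes per comparison are named. The members and lists were chosen with earlier results of these data known. Alternatives tried were other pseudocounts, level limits, folds, scalings and filters, no trend, a replicate block, and leaving out each library. After the data were seen, the count without overlapping genes and the alternatives of the mitosis count were added.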

Additional observations from a re-analysis of the deposited data

How the results depend on the processing

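At day 2, the counts of members in Ly6Clow against Ly6Chigh cells stayed within 1.5 times under each alternative run. With a 1.5-fold limit, 1 member was higher in Ly6Clow cells at day 4, 18 were higher in Ly6Chigh cells at day 4 against day 2, 21 lower in Ly6Clow cells at day 4 against day 2, and 6 higher in neutrophils against Ly6Clow cells at day 2. Adding 50 in place of 10 left 3 members higher in Ly6Chigh cells at day 4 against day 2 and 9 higher in Ly6Clow cells at day 4 against Ly6Chigh cells at day 2. For neutrophils against Ly6Chigh cells at day 2, a level limit of 20 gave 14 lower and no limit 16. Equal totals gave 2 higher and 17 lower there, and 1 higher against each other group. The share of all genes called was not counted under these muscle alternatives, so their member counts have no background beside them. In BMDM, limma without a filter called 53 genes higher and 84 lower (11 mitosis genes), and without the trend 22 and 27 (3 mitosis genes). Leaving out single libraries gave 32 to 138 genes higher, 47 to 150 lower, 0 to 1 member higher, 0 members lower and 7 to 18 mitosis genes lower. The cause of these differences was not tested. Same-numbered RvD2 and untreated libraries had correlations of 0.29, 0.02 and 0.05 in their deviations over all tested genes. These values do not settle whether the numbers pair the libraries. With the replicate block limma called 492 genes higher and 574 lower, with 1 member higher (Pola1) and 5 lower (Cdt1, Rrm1, Uhrf1, Dnmt1 and Chaf1a). No paired analysis was possible in muscle because its columns are group means. No result reversed its direction among those called. Muscle depth is unknown, so low levels, such as that of Orc1, have no stated precision.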

Other observations

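The 12 cell cycle inhibitors, which restrain the step the members carry out, lay on both sides in the macrophages. At day 2, 2 were called higher in Ly6Clow than Ly6Chigh cells (Rbl1, a retinoblastoma relative, and Cdkn2c, an inhibitor of the cyclin D kinases) and 3 lower. The lower ones were Btg2, an antiproliferative gene, at a log2 ratio of -2.20, Cdkn1b (p27) at -1.13 and Btg1 at -1.03. Cdkn1c (p57) was called higher at day 4 than at day 2 in both subsets. Its log2 levels were 6.93 at day 4 and 3.76 at day 2 in Ly6Clow cells, and 7.08 and 4.67 in Ly6Chigh cells. The summed fibroblast and skeletal muscle markers were also higher at day 4 in both subsets, and their part in Cdkn1c was not tested. Neutrophils had a log2 level of 16.58 for Btg2, against 9.74 to 12.87 in the macrophage groups, and of 15.42 for Btg1, against 12.28 to 13.31. In BMDM, Btg1 was higher with RvD2, with log2 values of 10.81, 11.04 and 11.29, against 10.20, 10.26 and 10.46 untreated. All 3 RvD2 libraries were higher, with a difference of 0.74 (limma adjusted p = 0.0194), and Btg2 was at 0.55 (limma adjusted p = 0.0551).

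Proliferation markers were split in neutrophils. On the deposited scale Mki67 had a log2 level of 10.64 there, against 7.23 to 9.98 in the macrophage groups. Top2a, which is transcribed in the same phases, was at 3.69, against 5.66 to 9.16. Equal totals shift log2 levels by -0.85 in neutrophils and 0.18 in Ly6Clow cells at day 4, the highest macrophage group for Mki67. On that scale Mki67 was lower in neutrophils than in that group. Of the 5 neutrophil precursor genes, Elane, Mpo, Ctsg and Ms4a3 were at 0.39, 1.94, 0 and 0.72 in neutrophils. Prtn3 was at 5.88 there, against 2.60 to 5.19 in the macrophage groups.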
